A study of Homo sapiens with 10 samples.

Results

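The BAG co-chaperone family (Bcl-2-associated athanogene) was followed in RPE-1 cells treated with sulforaphane (SFN). Its members were taken as the rows of the count table whose gene symbol is BAG1, BAG2, BAG3, BAG4, BAG5 or BAG6. All 6 were found among the 28380 genes of the table, and all 6 were among the 13378 genes that passed the filter on low counts and were tested. RPE-1 is a human retinal pigment epithelial line immortalized with telomerase, and SFN is an isothiocyanate from cruciferous vegetables that activates the transcription factor NRF2. Cells received 25 µM SFN or the vehicle DMSO for 4 h, with 5 libraries in each group made from 50000 cells per replicate. Both groups are the same immortalized line, with no other genotype and no other time or dose. The labels do not say whether the replicates were separate cultures, so the p-values measure only the spread between these libraries.

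BAG proteins are grouped by the BAG domain. In most members it binds the ATPase domain of HSP70 chaperones and speeds the exchange of ADP for ATP, so that the bound client protein is released. The rest of each protein decides where the client goes: BAG1 brings HSP70 to the proteasome, BAG2 restrains the ubiquitin ligase CHIP, BAG3 directs aggregated clients to autophagy, BAG4 holds death receptors silent, BAG5 inhibits HSP70, and BAG6 handles hydrophobic proteins on their way to the endoplasmic reticulum or to degradation. The change from BAG1 to BAG3 as the main partner of HSP70 under proteotoxic stress is a textbook feature of the family, and BAG3 is a known target of the heat shock factor HSF1.

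The libraries held between 12375860 and 20666692 counts. The first DMSO library stood apart from the other 4 DMSO libraries: its TMM scaling factor was 0.886, against 0.938 to 1.077 in the other 9, and the calls of the BAG genes are given with and without it. Of the defining pigment epithelium markers, RPE65, RLBP1, TYRP1, TTR and SERPINF1 had 0 to 4 counts in any library, while PMEL and RDH5 had 1 to 29 counts, OTX2 107 to 299 and BEST1 97 to 1244, and TERT averaged 1.45 CPM in DMSO. The keratin KRT8 averaged 383 CPM and the lineage factor MITF 50.8 CPM in DMSO. MITF, OTX2 and TERT were called decreased by edgeR, TERT to 0.264 CPM in SFN on 1 to 33 counts per library. As a check of the treatment, GCLM, a glutathione synthesis gene under NRF2, rose from 63.6 ± 19.3 to 157 ± 6.26 CPM (SD, n = 5 each), with a Benjamini-Hochberg adjusted p of 2.0e-04 from the quasi-likelihood test of edgeR. SRXN1 and TXNRD1, also NRF2 targets, did not pass (adjusted p = 0.647 and 0.0578 by the same test). When the first DMSO library was left out, GCLM rose by 1.504 on the log2 scale and TXNRD1 by 0.45 (adjusted p = 8.7e-09 and 0.0071 by edgeR), and SRXN1 was again not called (adjusted p = 0.755).

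BAG3 was the one member that passed the test in the increase direction with all 10 libraries, and it moved by far more than the spread between libraries. BAG3 (ENSG00000151929) lies on chromosome 10 from 119651380 to 119677819 of GRCh38, plus strand, with 4 exons in its canonical transcript. It was at 122, 123, 117, 115 and 112 CPM (counts scaled to a common library size, with TMM factors) in DMSO replicates 1 to 5. In SFN replicates 1 to 5 it was at 697, 702, 680, 677 and 611 CPM. The lowest SFN library was thus far above the highest DMSO library, and the DMSO libraries were within a narrow band that included the first one. The mean went from 118 ± 4.64 to 673 ± 36.7 CPM (SD, n = 5 each), a 5.72-fold increase. On the log2 scale the change was 2.52 (SE 0.095, 95% interval 2.31 to 2.72), with a Benjamini-Hochberg adjusted p of 2.4e-08 (edgeR quasi-likelihood test). By unadjusted p BAG3 ranked 3 of the 13378 tested genes, and by size of increase it ranked 85. These values rested on 1894 to 2696 counts per DMSO library and 8142 to 11689 counts per SFN library. In bulk RNA, fewer cells that make a transcript and less of it per cell cannot be told apart, and the same holds for increases.

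**Figure D1:**
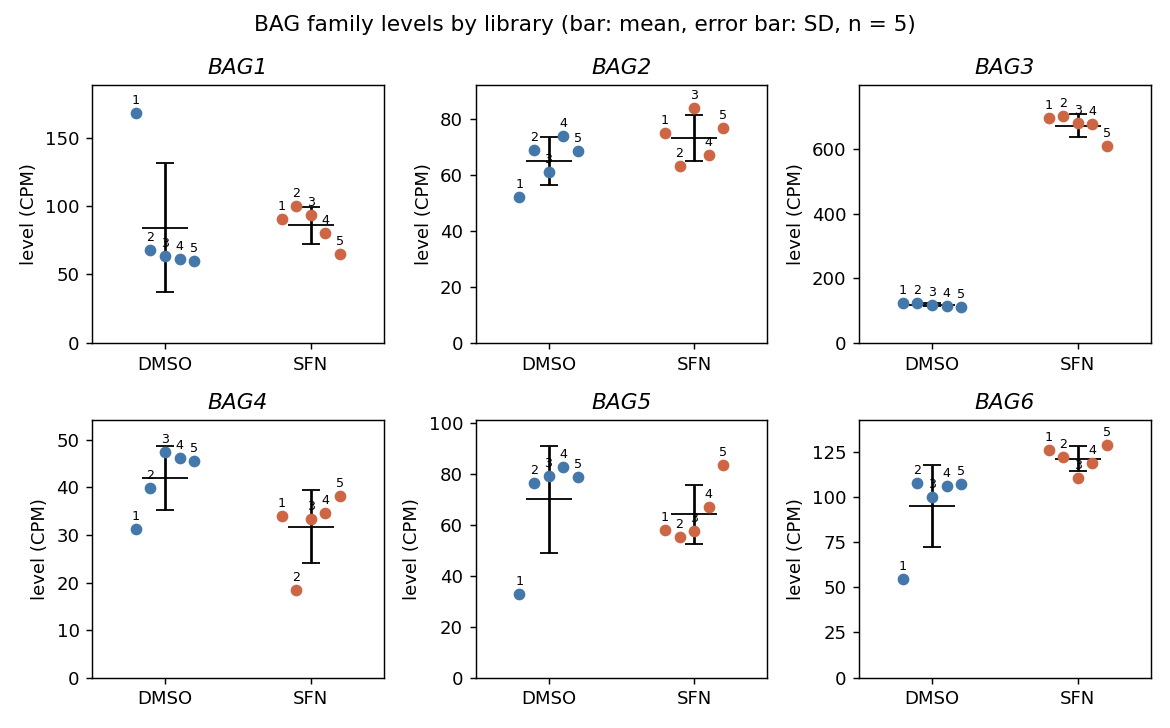
Level of each BAG gene (y axis, CPM from 0, TMM scaled) in the 5 DMSO and 5 SFN libraries, numbered by replicate, with the group mean and SD. BAG3 lies at 112 to 123 CPM in DMSO and 611 to 702 CPM in SFN, while DMSO replicate 1 stands away from the other DMSO libraries for BAG1, BAG5 and BAG6.

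Of the 6 members, 1 was called increased and 0 decreased at an adjusted p under 0.05 (edgeR quasi-likelihood test). With unadjusted p under 0.05 as the limit, it was again 1 and 0. Across all tested genes 9.07% were called increased and 13.9% decreased, and 2.94% were increased by more than 1 on the log2 scale, a limit that BAG3 alone of the 6 passed. Every SFN library was above every DMSO library for BAG3 and BAG6, 2 of 6 members, against 8.78% of tested genes. Every SFN library was below every DMSO library for 0 of 6 members, against 11.1% of tested genes. The median log2 fold change was 0.10 over the 6 members and -0.03 over all tested genes.

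The genes whose levels over the 10 libraries were most like those of BAG3 were searched among 10038 genes with a mean of at least 5 CPM, as a description that includes the difference between the groups. They were JMJD6, a jumonji-domain hydroxylase (Pearson r = 0.999), the stress-inducible HSP70 genes HSPA1B (r = 0.998), HSPA6 (r = 0.998) and HSPA1A (r = 0.998), and SLC25A25, a mitochondrial ATP-Mg/phosphate carrier (r = 0.997). HSPA1A and HSPA1B are nearly identical copies, so the split of reads between them is uncertain. JMJD6 went from 44.02 to 158 CPM and HSPA6 from 0.558 to 44.6 CPM.

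Because HSP70 genes are in that list, the 1000 bases before the canonical start of each gene were searched for the heat shock element, the binding pattern of HSF1, written as 3 alternating units, GAA and its reverse complement TTC, with any 2 bases between neighbouring units (either unit first, both strands, overlapping matches counted). It occurred before 173 of 13322 tested genes (1.3%). BAG3, JMJD6 and HSPA6 each held 1 such match. BAG1, BAG2, BAG5, BAG6, HSPA1A, HSPA1B and SLC25A25 held 0, which says only that these letters were not in the window. The shorter form, with 2 units in place of 3 and contained in the longer one, occurred before 36.4% of tested genes. It occurred 3 times before BAG3, once each before BAG1 and BAG2 and not before BAG5 or BAG6. Of the genes most like BAG3, HSPA6 held 4 such matches, JMJD6, HSPA1A and HSPA1B 2 each and SLC25A25 1. An earlier search of shorter windows, beginning 250 bases before the start, found neither form for BAG3. It found the 2-unit form once for BAG2, at -124 from the start, and had no window for BAG4. The matches of the 3-unit form are shown with their flanks because BAG3 shares that form with 2 of the 5 genes most like it. They were read from the GRCh38 genome at GENCODE 44 start sites, 5′ to 3′ on the strand of the gene, with the element in capitals. The BAG3 match begins 506 bases before the start, within chr10:119650859-119650901, plus strand.
BAG3: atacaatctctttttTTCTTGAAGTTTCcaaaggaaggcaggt
The HSPA6 match begins 74 bases before the start, within chr1:161524451-161524493, plus strand.
HSPA6: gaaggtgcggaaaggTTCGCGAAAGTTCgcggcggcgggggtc
The JMJD6 match begins 22 bases before the start, within chr17:76726607-76726643, minus strand.
JMJD6: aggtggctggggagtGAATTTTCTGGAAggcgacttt
A match of letters is a description of the sequence and does not show that a factor was bound there in these cells.

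With BAG3 so much higher, the make-up of the family counts differed between the groups. BAG3 held 26.5%, 25.4%, 24.9%, 23.7% and 23.8% of all BAG counts in DMSO replicates 1 to 5. It held 64.5%, 66.2%, 64.3%, 64.8% and 60.9% in SFN replicates 1 to 5. BAG3 thus held most of the family's counts in every SFN library and in no DMSO library, at 24.9 ± 1.18% in DMSO and 64.1 ± 1.96% in SFN (SD, n = 5 each). The shares are of counts and are not divided by transcript length. The family sum went from 474 ± 10.6 to 1050 ± 29.1 CPM. Without BAG3 it was 356 ± 12.03 CPM in DMSO and 376 ± 13.2 CPM in SFN, with overlapping ranges of 339 to 371 and 359 to 392 CPM.

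**Figure D2:**
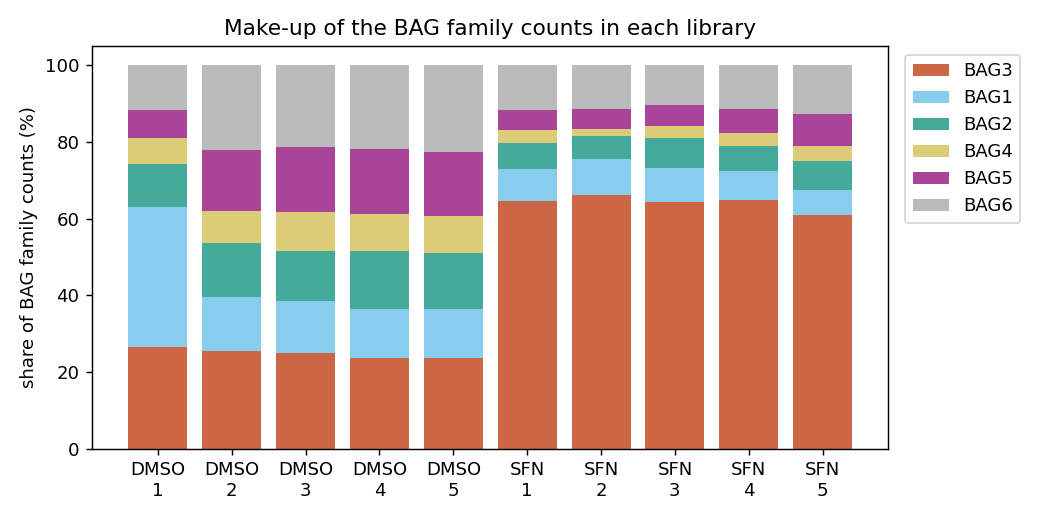
Share of each BAG gene among all BAG family counts (y axis, percent) in each of the 10 libraries, as stacked bars. BAG3 fills 23.7% to 26.5% of the bar in DMSO and 60.9% to 66.2% in SFN, and BAG1 fills 36.4% in DMSO replicate 1.

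The ratio of BAG3 to BAG1 counts was 0.728 in the first DMSO library, and the DMSO mean was 1.62 ± 0.502. In DMSO replicates 2 to 5 it was 1.80, 1.84, 1.87 and 1.88, so BAG3 counts were above BAG1 counts there without SFN. In SFN it was between 7.02 and 9.36, with a mean of 7.97 ± 0.946 (SD, n = 5 each). The ranges were far apart. The DMSO mean was 1.85 when the first library was left out. The mean ratio of BAG3 to BAG6 went from 1.34 to 5.58, that to BAG2 from 1.85 to 9.31, that to BAG5 from 1.92 to 10.8 and that to BAG4 from 2.88 to 22.9. With the first library left out, the DMSO means were 1.11 for BAG6, 1.72 for BAG2, 1.47 for BAG5 and 2.63 for BAG4. The change of BAG3 against BAG4 was the widest of the 5, and in none of these ratios was a count divided by length.

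BAG1, which links HSP70 to the proteasome through a ubiquitin-like domain, gave different results with and without the first DMSO library. BAG1 (ENSG00000107262) lies on chromosome 9 from 33247820 to 33264720, minus strand, with 7 exons. It was at 168, 68.2, 63.2, 61.6 and 59.8 CPM in DMSO replicates 1 to 5. The SFN libraries, in the same order, were at 90.4, 100, 93.2, 80.2 and 65.2 CPM. The first DMSO library was the highest of all 10, the other 4 DMSO libraries were within a few CPM of each other, and the groups overlapped. With all libraries the log2 fold change was 0.03 (SE 0.28, 95% interval -0.59 to 0.64), which edgeR's quasi-likelihood test did not call (adjusted p = 0.958). Without the first DMSO library BAG1 rose by 0.44 on the log2 scale, 1.35-fold (SE 0.11, 95% interval 0.19 to 0.68, adjusted p = 0.0062 in the edgeR quasi-likelihood test). SFN replicate 5, at 65.2 CPM, was still inside the range of the remaining DMSO libraries.

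BAG5, which has several BAG domains in a row and inhibits HSP70, showed the opposite arrangement. BAG5 (ENSG00000166170) lies on chromosome 14 from 103556545 to 103562657, minus strand, with 2 exons. It was at 32.9, 76.6, 79.3, 82.8 and 78.7 CPM in DMSO replicates 1 to 5. Its SFN values, replicates 1 to 5, were 57.9, 55.2, 57.7, 67.0 and 83.4 CPM. The first DMSO library was the lowest of all 10 and SFN replicate 5 the highest, so the groups overlapped at both ends. The log2 fold change was -0.12 (SE 0.23, 95% interval -0.62 to 0.37, adjusted p = 0.750 in the edgeR quasi-likelihood test). BAG5 fell by 0.31 on the log2 scale without the first DMSO library (SE 0.11), with an adjusted p of 0.0372 by the same edgeR test.

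BAG1, BAG5 and BAG4 moved with a property of the library, its length slope. This is the change in log2 CPM, taken from each gene's mean over the 10 libraries, for each doubling of canonical transcript length, fitted over 13324 genes. It was -0.27 in the first DMSO library and between 0.09 and 0.15 in the other 4, so long transcripts were low in the first. In SFN replicates 1 to 5 it was -0.05, -0.19, -0.06, -0.04 and 0.11. Within SFN, the order of the libraries from high to low BAG1 (2, 3, 1, 4, 5) was the order from low to high BAG5, from low to high BAG4 and from low to high slope. BAG3 had nearly the same order as BAG1 in SFN, with replicates 1 and 3 exchanged. BAG1 has a canonical transcript of 3820 bases and BAG5 one of 4684 bases, both above the median of 3173 bases over tested genes. Over the 10 libraries the Pearson correlation of log2 CPM with the slope was -0.958 for BAG1, 0.938 for BAG5 and 0.806 for BAG4. It was -0.355 for BAG3, 0.443 for BAG2 and 0.475 for BAG6. Without the first DMSO library it was -0.965 for BAG1, 0.939 for BAG5, 0.928 for BAG4 and -0.785 for BAG3. BAG2 and BAG6 were then at -0.043 and -0.556. These correlations include the difference between the groups. The cause was not tested.

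**Figure D3:**
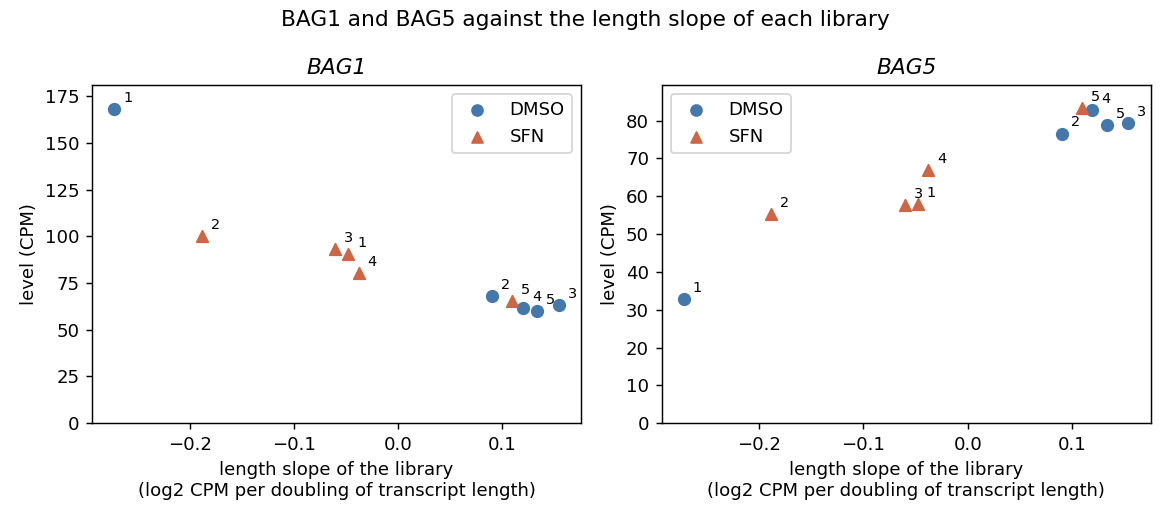
Level of BAG1 and BAG5 (y axes, CPM from 0) against the length slope of each library (x axis, log2 CPM per doubling of transcript length), with DMSO as circles and SFN as triangles, numbered by replicate. DMSO replicate 1, at a slope of -0.27, has the highest BAG1 (168 CPM) and the lowest BAG5 (32.9 CPM). SFN replicate 5, at 0.11, lies among the other DMSO libraries in slope and BAG1 (65.2 CPM) and just above them in BAG5 (83.4 CPM).

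With the length slope as a covariate, BAG3 kept an increase of 2.49 on the log2 scale over all libraries and 2.41 without the first DMSO library. BAG1 was at -0.14 and 0.07 and BAG5 at 0.19 and 0.03 in the same fits, and none of these 4 values passed edgeR's quasi-likelihood test. BAG4 was at -0.25 and 0.03, also without a call. The slopes of the groups differ, so the covariate also takes up part of any difference between SFN and DMSO. The part of the length slope in the changes of BAG1, BAG4 and BAG5 was not tested beyond these fits.

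The genes most like BAG1 over the 10 libraries were SELENOH, a selenoprotein (r = 0.998), NDUFAF8, an assembly factor of respiratory complex I (r = 0.997), and MDH1, cytosolic malate dehydrogenase (r = 0.995). Their log2 fold changes were -0.18, -0.15 and 0.03 and none was called by edgeR. Those most like BAG5 were ZNF507, a zinc finger protein, CARMIL1, a regulator of actin capping, and SYNJ1, a phosphoinositide phosphatase, with r from 0.991 to 0.992. Their log2 fold changes were between -0.23 and -0.16, also without a call. These likenesses are descriptions over 10 libraries that share the spread described above, and they are given without a test.

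BAG6, the scaffold of a complex that receives tail-anchored and mislocalized proteins, was higher in every SFN library than in any DMSO library. BAG6 (ENSG00000204463) lies on chromosome 6 from 31639028 to 31652705, minus strand, with 26 exons. It was at 54.6, 107, 99.9, 106 and 107 CPM in DMSO replicates 1 to 5. The SFN libraries, in the same order, were at 126, 122, 111, 119 and 128 CPM. The first DMSO library was far below all others, and the highest of the other 4 was just under the lowest SFN library. The mean went from 95.1 ± 22.9 to 121 ± 7.02 CPM (SD, n = 5 each). The log2 fold change of 0.35 (SE 0.17, 95% interval -0.02 to 0.72) was not called, with an adjusted p of 0.169 in the edgeR quasi-likelihood test. Without the first DMSO library the other 4 averaged 105 ± 3.57 CPM, and BAG6 rose by 0.20 (SE 0.074, adjusted p = 0.0416 by edgeR). The fit with a replicate block and without the first DMSO and SFN libraries gave 0.18 and no call (adjusted p = 0.138 by edgeR). Over both fits with the length slope as a covariate BAG6 was called increased, by 0.55 with all libraries (adjusted p = 1.0e-04) and by 0.24 without the first DMSO library (adjusted p = 0.0388).

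BAG2, an inhibitor of the CHIP ubiquitin ligase, had the smallest standard error of the 5 members that were not called. BAG2 (ENSG00000112208) lies on chromosome 6 from 57172326 to 57189833, plus strand, with 3 exons. It was at 52.1, 68.9, 60.9, 74.0 and 68.5 CPM in DMSO replicates 1 to 5. In SFN replicates 1 to 5 it was at 75.2, 63.1, 83.8, 67.3 and 77.0 CPM. The groups overlapped, with a log2 fold change of 0.17 (SE 0.12, 95% interval -0.09 to 0.44, adjusted p = 0.353 in the edgeR quasi-likelihood test). Leaving out the first DMSO library gave 0.10 (adjusted p = 0.417 by edgeR), also not called. Its canonical transcript, at 6651 bases, is the longest of the 6, and it was called in the fit with the length slope over all libraries (0.26, adjusted p = 0.0156 by edgeR) but not in that without the first DMSO library (0.22).

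BAG4, also known as silencer of death domains for its binding to the TNF receptor TNFRSF1A, averaged 42.01 ± 6.69 CPM in DMSO and 31.7 ± 7.63 CPM in SFN (SD, n = 5 each), a difference that did not pass with all libraries. BAG4 (ENSG00000156735) lies on chromosome 8 from 38176533 to 38213301, plus strand, with 5 exons. It was at 31.2, 39.9, 47.4, 46.1 and 45.5 CPM in DMSO replicates 1 to 5. Its SFN values, replicates 1 to 5, were 34.0, 18.5, 33.3, 34.6 and 38.1 CPM. The first DMSO library lay among the SFN libraries, while the other 4 DMSO libraries were above all of them. The log2 fold change was -0.40 (SE 0.19, 95% interval -0.82 to 0.01, adjusted p = 0.152 in the edgeR quasi-likelihood test). BAG4 fell by 0.50 without the first DMSO library (SE 0.16, adjusted p = 0.0216 by edgeR), but with the length slope as a covariate as well it was at 0.03 (adjusted p = 0.911). Leaving out SFN replicate 2, the lowest, gave -0.26 with all DMSO libraries. Its values rest on 214 to 875 counts per library, the fewest of the family. The 1000 bases before its start held 0 heat shock elements of either form.

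**Figure D4:**
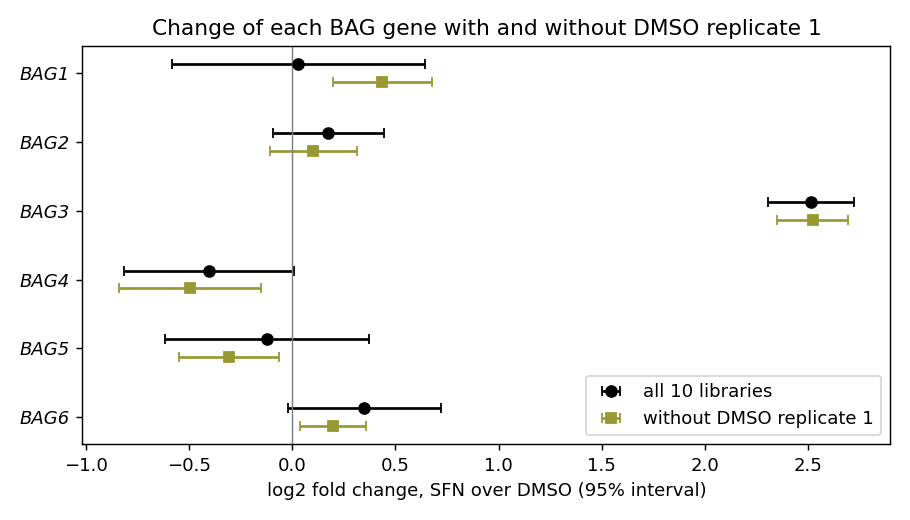
Log2 fold change of SFN over DMSO for each BAG gene (x axis, points with 95% intervals) with all 10 libraries (black circles) and without DMSO replicate 1 (olive squares). BAG3 stays at 2.52 in both, while the intervals of BAG1, BAG4, BAG5 and BAG6 include 0 with all libraries and not without that one.

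Without the first DMSO library, 3 members were called increased (BAG1, BAG3 and BAG6) and 2 decreased (BAG4 and BAG5). The background rose as well, to 22.5% of 13566 tested genes increased and 23.5% decreased. The first DMSO library against the mean of the other 4 was at 2.66-fold for BAG1, 0.765-fold for BAG2, 1.05-fold for BAG3, 0.698-fold for BAG4, 0.414-fold for BAG5 and 0.519-fold for BAG6. BAG3 was thus the member least touched by that library. Over the 22 alternative settings tried, the adjusted p of edgeR, limma or DESeq2 ranged from 2.6e-05 to 0.998 for BAG1, from 0.0156 to 0.771 for BAG2, from 8.6e-04 to 0.911 for BAG4, from 2.1e-04 to 0.905 for BAG5 and from 1.0e-04 to 0.455 for BAG6, and it was at most 2.1e-05 for BAG3. Neighbouring genes on the other strand share bases with 5 of the 6: SPINK4 with BAG1, RAB23 with BAG2, LSM1 with BAG4, KLC1 with BAG5 and APOM with BAG6. RAB23 had 478 to 1417 counts per library, LSM1 785 to 1342 and KLC1 643 to 1596, whereas APOM had 2 to 17, against at least 876 for BAG6. SPINK4 was not analysed here. The sources used here do not state whether counting used strand, so reads from the overlaps with RAB23, LSM1 and KLC1 are uncertain. No such overlap was found for BAG3.

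Other nucleotide exchange factors of HSP70 were examined beside the family, as 8 genes of the GrpE, HSP110, HSPBP1 and SIL1 types. Of the 8, 4 rose and 0 fell (edgeR's quasi-likelihood test, adjusted p under 0.05), with a median log2 fold change of 0.50, against 9.07% increased, 13.9% decreased and a median of -0.03 over all tested genes. HSPH1, an HSP110 chaperone, was at 410, 430, 429, 431 and 422 CPM in DMSO replicates 1 to 5. The SFN libraries, in the same order, were at 1641, 1475, 1558, 1716 and 1799 CPM. The groups were far apart, a 3.86-fold increase (log2 1.95, SE 0.10, adjusted p = 2.7e-07 by edgeR). GRPEL2, a mitochondrial GrpE factor, rose 2.08-fold from 20.1 to 41.7 CPM and HSPA4, another HSP110, 1.70-fold from 494 to 841 CPM. HSPA4L rose by 0.54 on the log2 scale (adjusted p = 0.0347 by edgeR), with overlapping groups. HSPBP1, SIL1, HYOU1 and GRPEL1 were not called, with log2 fold changes from 0.04 to 0.46. Leaving out the first DMSO library gave 6 increased and 0 decreased, against 22.5% and 23.5% of all genes tested in that fit.

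The partners of BAG3 in chaperone-assisted autophagy, actin binding and signalling were a list of 26 genes, 24 of them tested. Of these 7 rose (29.2%) and 2 fell (8.33%), with a median log2 fold change of 0.12, against 9.07% and 13.9% of all tested genes. The HSP70 genes HSPA1B and HSPA1A rose by 4.34 and 3.84 on the log2 scale. HSPB8, the small heat shock protein that pairs with BAG3, was at 4.48, 6.20, 7.04, 4.82 and 6.16 CPM in DMSO and at 12.7, 17.5, 15.5, 14.8 and 12.9 CPM in SFN replicates 1 to 5. The groups did not overlap, a 2.55-fold increase (log2 1.35, SE 0.16, adjusted p = 8.9e-05 in the edgeR quasi-likelihood test). DNAJB6, an HSP40 co-chaperone, rose by 0.83. SYNPO, the actin-associated protein synaptopodin, fell by 0.95 (adjusted p = 0.0084 by edgeR) with overlapping groups, and VPS18, a subunit of the vacuolar tethering complexes, fell by 0.69 (adjusted p = 7.0e-04) from 39.95 to 24.7 CPM without overlap. HSPB2 and HSPB6 were not tested, with at most 2 and 18 counts in any library. With the first DMSO library left out, 10 of 24 rose and 6 fell, the latter near the 23.5% of all genes (22.5% rose).

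The BAG6 complex and the pathway that inserts tail-anchored proteins were listed as 11 genes, all tested, of which 0 rose and 2 fell (18.2%) in the edgeR quasi-likelihood test, against 9.07% and 13.9% of all tested genes, so the share that fell was near the background. With the limit set on the unadjusted p, 1 rose and 2 fell, and DESeq2 called 1 increased. UBL4A, a subunit of the BAG6 complex, fell by 0.53 (adjusted p = 0.0485 by edgeR), from 23.7 ± 5.80 to 16.5 ± 2.65 CPM (SD, n = 5 each) with overlap. UBQLN2, a ubiquilin, fell by 0.43 (adjusted p = 0.0161 by edgeR), from 29.5 ± 3.45 to 21.9 ± 1.75 CPM without overlap. The median of the list was -0.06, and 2 genes were called increased when the first DMSO library was left out, near the 22.5% of all genes. UBQLN2 was called in 20 of 22 alternative settings and UBL4A in 12, and neither was called with the replicate block (adjusted p = 0.0509 and 0.0624 by edgeR) or with no low-count filter (0.0520 and 0.0512).

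The partners of BAG1, BAG2, BAG4 and BAG5 were 20 genes, 18 of them tested, of which 3 rose (16.7%) and 2 fell (11.1%), against 9.07% and 13.9% of all tested genes, with a median of 0.15. PPP1R15A, a stress-induced phosphatase subunit (GADD34) that binds BAG1, was at 156, 183, 187, 176 and 147 CPM in DMSO and at 659, 637, 650, 684 and 537 CPM in SFN replicates 1 to 5. It was 3.73-fold higher in SFN, without overlap (log2 1.90, SE 0.11, adjusted p = 8.5e-07 in the edgeR quasi-likelihood test). TNFRSF1A, the receptor that BAG4 binds, rose by 0.80 from 48.7 to 84.6 CPM (adjusted p = 0.0027 by edgeR), without overlap. HSPA8, the constitutive HSC70, rose by 0.72. HSPA8 is also on the list of BAG3 partners and is counted as increased in both, so the counts of these lists are not independent. The nuclear receptor genes RARA and VDR fell by 0.98 and 0.52 (adjusted p = 0.0088 and 0.0100 by edgeR). MAPT, the gene of tau, was not tested, with at most 6 counts in any library. When the first DMSO library was left out, 9 of 18 rose and 5 fell, against 22.5% and 23.5% of all genes.

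**Figure D5:**
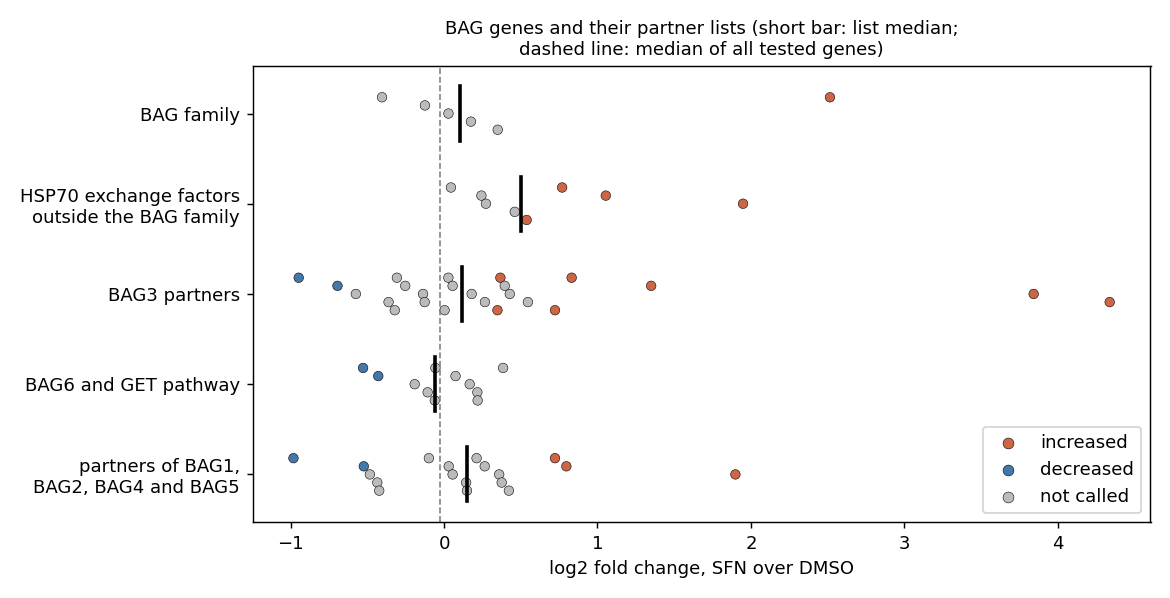
Log2 fold change of SFN over DMSO (x axis) for the tested genes of the family and of 4 lists of related genes, coloured by call, with the median of each list as a short bar and that of all tested genes (-0.03) as a dashed line. BAG3 at 2.52 is the only coloured point of the family, and HSPA1B at 4.34 and HSPA1A at 3.84 lie farthest to the right.

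The genes most like BAG2 over the 10 libraries were LIPG, endothelial lipase (r = 0.953), ANOS1, an extracellular matrix protein (r = 0.944), and POR, the cytochrome P450 reductase (r = 0.930), the loosest likeness of any member. Those most like BAG4 were MSANTD4 (r = 0.986), ARL6, a small GTPase of cilia (r = 0.984), and ZBTB14, a zinc finger repressor (r = 0.9747). Of these, ZBTB14 fell by 0.86 on the log2 scale (adjusted p = 0.0375 in the edgeR quasi-likelihood test). Those most like BAG6 were NRBP1, a pseudokinase (r = 0.994), CAP1, an actin-binding protein (r = 0.988), and ZDHHC5, a palmitoyltransferase (r = 0.985), none of them called.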

How the data were processed

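RPE-1 RNA was sequenced by the authors as QuantSeq 3′ end libraries. The authors deposited raw counts, 1 row per Ensembl gene and 1 column per library, with no normalization. The submitters' processing notes name FastQC, STAR, featureCounts and edgeR, while the methods describe the Bluebee pipeline. Versions, strand use and molecular identifiers are not given in the sources used here. The authors' own model had a repeated-measures term that the text does not define, and it was not run here. Counts were filtered with filterByExpr, scaled by TMM and compared by glmQLFTest in edgeR 4.0.16 (R 4.3.3), with Benjamini-Hochberg adjustment over 13378 genes. limma 3.58.1 and DESeq2 1.42.0 served as alternatives. Standard errors were derived from the fold change and the F statistic. The methods were tested on simulated data. These held no length slope, so they cannot show how the methods do where libraries differ in it.

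The members and lists were chosen with earlier results of these data known. Named are all 6 members, in each list up to 4 called genes with the largest increase and 4 with the largest decrease plus genes not tested (some listed genes are not reported here), and for each member the 3 genes (5 for BAG3) most like it. The genes that were not called among the exchange factors were named after their values were seen, and the heat shock element search and the length slope were also added then. Positions and lengths come from GENCODE 44, which held 28145 of 28380 identifiers. Between replicates, chi-square per degree of freedom was 3.50 to 243, so none was the same library counted again. It cannot show whether replicates came from separate cultures.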

Additional observations from a re-analysis of the deposited data

Results flagged for a closer look

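For 5 values of the family's genes and 1 scaling factor, 1 library lay apart from the other 4 of its group, with a gap of more than 0.71 of the group's range. BAG1 in the first DMSO library was the highest, with a gap of 0.923 of the range. BAG5 in the same library was the lowest (0.876), as was BAG6 (0.857) and the TMM factor (0.907). BAG3 in SFN replicate 5 was the lowest of its group (0.722), and BAG4 in SFN replicate 2 was the lowest of its group (0.754). These are 6 of 20 groups examined, where chance gives about 1 in 20 for a single group, and 4 of the 6 are the first DMSO library. The groups share libraries and are not independent, so the excess over chance cannot be judged from this count. The values of BAG3 in SFN replicate 5 (611 CPM) and BAG4 in SFN replicate 2 (18.5 CPM) did not decide a call: BAG3 was called and BAG4 was not, with or without these libraries. The cause of these gaps was not tested.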

How the results depend on the processing

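BAG3 was called increased under all 22 alternatives, between 2.41 and 2.55. Leaving out 1 library at a time gave -0.0735 to 0.44 for BAG1, -0.50 to -0.26 for BAG4, -0.31 to -0.060 for BAG5 and 0.20 to 0.40 for BAG6. The upper ends for BAG1 and the lower ends for BAG4, BAG5 and BAG6 came without DMSO replicate 1. The same refits gave 1 to 3 members increased and 0 to 2 decreased, 2 to 6 BAG3 partners decreased, 0 to 2 BAG6 pathway genes increased and 1 to 2 decreased, and 3 to 9 partners of the other members increased and 2 to 5 decreased. Over all genes the refits gave 906 to 3058 increased and 1470 to 3193 decreased, both highest without DMSO replicate 1.

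With library size only BAG1 was at -0.0095 and with upper quartile scaling at -0.0091. Library size only gave 819 genes increased and 2163 decreased, against 1214 and 1862 by TMM. limma-voom with sample quality weights gave BAG1 0.44, BAG4 -0.40, BAG5 -0.36 and BAG6 0.18, all called, with 3 members increased and 2 decreased, 7 exchange factors increased, 11 BAG3 partners increased and 9 decreased, 4 BAG6 pathway genes increased, and 10 partners of the other members increased and 5 decreased. Over all 13378 genes that fit called 3874 increased and 4041 decreased, so calls were more frequent across the whole set as well. limma-voom with quantile normalization gave 4 BAG3 partners increased, 1 BAG6 pathway gene decreased and 1 partner of the other members decreased. It called 1317 genes increased and 1533 decreased over all genes. For the BAG6 pathway, DESeq2 gave 1 increased, its size factors 1 decreased, and no low-count filter 0 decreased. Over all genes these settings called 1635, 1295 and 1135 increased and 2121, 1774 and 1717 decreased, in that order.

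Whether the replicate numbers pair the libraries was not settled. Same-numbered libraries had correlations of deviations from the group means of 0.04, -0.27, -0.06, 0.03 and 0.48. Of the DMSO libraries, only number 5 correlated best with the SFN library of its own number. These deviations include shifts over a whole library, such as the length slope, so they cannot decide whether cultures were paired. With the replicate block BAG3 was at 2.51, 1 member was called increased, and BAG6 pathway genes decreased went to 0. That fit called 911 genes increased and 1530 decreased over all genes.

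Other alternatives were chosen after seeing the data. Quality weights without the first DMSO library gave BAG1 0.46, BAG4 -0.41, BAG5 -0.37 and BAG6 0.17, all called, with 3 members increased and 2 decreased, 7 exchange factors increased, 11 BAG3 partners increased and 9 decreased, 4 BAG6 pathway genes increased, and 10 and 5 partners of the other members. The replicate block without the first DMSO and SFN libraries gave BAG1 0.40, BAG4 -0.57 and BAG5 -0.29, all called, and BAG6 0.18, not called, with 2 members increased and 2 decreased, 7 exchange factors increased, 7 BAG3 partners decreased, 2 BAG6 pathway genes increased, and 8 and 5 partners of the other members. The length slope as a covariate gave BAG1 -0.14, BAG2 0.26, BAG5 0.19 and BAG6 0.55, with 3 members and 14 BAG3 partners increased, 1 BAG6 pathway gene increased and 6 partners of the other members increased. Without the first DMSO library as well it gave BAG4 0.0281, BAG5 0.0260 and BAG6 0.24, with 2 members increased, 4 BAG3 partners decreased, 1 BAG6 pathway gene increased and 6 partners of the other members increased. Over all genes these fits, in the order given, called 3946, 2757, 3293 and 2144 increased and 4106, 3020, 3439 and 2171 decreased. The tested genes numbered 13566, 13414, 13378 and 13566. The causes were not tested.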
